A study of Mus musculus with 12 samples.

Results

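The 8 ADAMTS metalloproteinase genes Adamts1, Adamts2, Adamts4, Adamts5, Adamts7, Adamts9, Adamts12 and Adamts15 were followed in primary smooth muscle cells of the mouse aorta. They were chosen by symbol, as the rows of the gene table whose Ensembl identifier carries one of these names, and all 8 were found among 55822 identifiers, which also hold the other 11 Adamts genes. RNA was sequenced in 12 libraries, 4 for each of 3 culture media. In the first group, called IFNγ/LPS CM, the cells received conditioned medium of bone marrow-derived macrophages that had been given 20 ng/mL interferon gamma overnight and 100 ng/mL lipopolysaccharide for 4 hours and were then washed 4 times. In the second group, called naive CM, they received conditioned medium of macrophages that had not been stimulated. Both media had been conditioned for 24 hours in DMEM with 0.3% serum, penicillin, streptomycin and the macrophage growth factor M-CSF at 10 ng/mL, and the smooth muscle cells had been starved for 48 hours before a 24 hour exposure. The third group, called regular medium, was kept in growth medium, whose composition is not given in the sources used here, nor are the strain, sex and age of the mice. Regular medium therefore differs from naive CM in more than the macrophage products. The deposited table names its columns by M0 and M1, which were read as naive and as IFNγ/LPS macrophages by the common use of these names, and every direction below depends on that reading.

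ADAMTS proteins are secreted enzymes with a zinc-binding metalloproteinase domain and a variable number of thrombospondin type 1 repeats, which help to place them in the extracellular matrix. They are made as inactive precursors, which furin-type convertases process, and TIMP3 is the tissue inhibitor best known to block several of them. Adamts1, Adamts4, Adamts5, Adamts9 and Adamts15 encode enzymes that cut the large proteoglycans versican and aggrecan, Adamts2 encodes a procollagen N-propeptidase, and Adamts7 and Adamts12 encode enzymes known to cut cartilage oligomeric matrix protein (COMP). In the artery wall versican is a major proteoglycan, and the human ADAMTS7 locus is known for its association with coronary artery disease.

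The coding sequence of the zinc-binding site shows what the 8 members share and how they divide. The 36 bases below code for the 3 histidines that hold the catalytic zinc ion, with the glutamate of catalysis beside the first, and the capitals mark the 3 histidine codons. They were read from GENCODE M21 transcripts on GRCm38, 5′ to 3′ on the coding strand.
Adamts1: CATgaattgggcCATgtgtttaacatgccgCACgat
Adamts4: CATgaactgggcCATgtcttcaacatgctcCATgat
Adamts9: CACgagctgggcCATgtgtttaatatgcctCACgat
Adamts15: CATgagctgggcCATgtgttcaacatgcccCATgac
Adamts5: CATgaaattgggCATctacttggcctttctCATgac
Adamts2: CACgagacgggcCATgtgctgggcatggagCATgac
Adamts7: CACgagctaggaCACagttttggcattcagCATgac
Adamts12: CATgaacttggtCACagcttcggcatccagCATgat
In all 8 genes these 36 bases were split by 1 intron, so that each site lies in 2 coding exons. The cut falls after base 10 in Adamts1, Adamts4, Adamts5 and Adamts15, and after base 17 in Adamts2, Adamts7, Adamts9 and Adamts12. Sorted by sequence, Adamts4 and Adamts15 matched at 32 of 36 bases and Adamts1 and Adamts9 at 31, while Adamts7 and Adamts12 matched at 28. The fewest matches, 20, were between Adamts5 and Adamts9 and between Adamts9 and Adamts12. The eighth codon is asparagine in Adamts1, Adamts4, Adamts9 and Adamts15, and glycine in the other 4. With its intron, the site spans chr9:90179456-90180643 of Adamts7 on the plus strand, in exons 7 and 8, chr6:92905282-92908493 of Adamts9 on the minus strand, in exons 8 and 9, and chr9:30911252-30911690 of Adamts15 on the minus strand, in exons 2 and 3. It spans chr1:171253210-171253918 of Adamts4 in exons 3 and 4 and chr16:85799188-85799545 of Adamts1 in exons 3 and 4. It spans chr16:85878012-85887826 of Adamts5 in exons 2 and 3, chr11:50775403-50776137 of Adamts2 in exons 7 and 8, and chr15:11241529-11255567 of Adamts12 in exons 7 and 8. Adamts1 and Adamts5 are neighbours, both on the minus strand of chromosome 16, at chr16:85793827-85803113 and chr16:85856173-85901828, with 53059 bases between them. They did not change alike, as given below.

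Total estimated counts were between 28097496 and 61493375 per library. Across genes, log2 counts per 1000000 (CPM) correlated at 0.9885 to 0.993 between libraries of 1 group and at 0.864 to 0.869 where 1 library was of IFNγ/LPS CM and the other of naive CM. The titles number the libraries as biological replicates but name no separate animals or cultures, so p-values measure only how far these libraries spread, which may be technical in part. Of the smooth muscle markers, Acta2 had the highest CPM in every group, while Myh11 and Cnn1 were under 1 CPM in every group. After Acta2 came Smtn and then Tpm2 in IFNγ/LPS CM, and Tpm2 and then Smtn in naive CM and regular medium. The 8 smooth muscle markers summed to 143 to 147 CPM in IFNγ/LPS CM, 378 to 402 CPM in naive CM and 400 to 493 CPM in regular medium. The 12 macrophage markers summed to 847 to 959 CPM in IFNγ/LPS CM, 1.57 to 2.00 CPM in naive CM and 1.14 to 1.26 CPM in regular medium. In IFNγ/LPS CM nearly all of this was Mpeg1 (874 CPM). There Fcgr1, Laptm5 and C1qa were at 0, Ptprc had 1 count and Adgre1 2 counts over the 4 libraries. Among the lower markers Csf1r averaged 4.62 CPM in IFNγ/LPS CM and 0.203 CPM in naive CM. In the same order Cd68 averaged 6.19 and 1.07 CPM, called higher, and Lyz2 0.472 and 0.0785 CPM. Csf1r and Lyz2 passed the filter on low counts mainly through IFNγ/LPS CM, where they are high, so no call is given for them. The 8 adventitial fibroblast markers summed to 2288 to 2595 CPM in IFNγ/LPS CM, 260 to 279 CPM in naive CM and 104.2 to 111 CPM in regular medium. In IFNγ/LPS CM this sum was nearly all Ly6a, which is also an interferon-induced gene, at 2379 CPM. Ly6a averaged 215.2 CPM in naive CM and 69.6 CPM in regular medium, a smaller part of the sum in each. Of the 6 tested, Ly6a and Pdgfra were called higher in IFNγ/LPS CM than in naive CM, Cd34 was called lower (2.95-fold) and Lum did not pass. These calls stand beside 71.9% of all genes called, 36.1% higher and 35.8% lower. Dpt averaged 0.257 CPM in IFNγ/LPS CM and 9.87 CPM in naive CM, and Pi16 0.191 and 1.68 CPM in that order. Dpt and Pi16 passed the filter on low counts through naive CM and regular medium, where they are higher, so no call is given for them. The 8 endothelial markers summed to at most 3.39 CPM in any library. The part of these marker differences in the ADAMTS values was not tested, and in bulk RNA fewer cells of a type and less RNA per cell cannot be told apart.

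The first question was which ADAMTS genes differed between cells in medium of IFNγ/LPS-treated and of naive macrophages. Adamts7 rose 14.6-fold, Adamts9 6.15-fold, Adamts4 2.64-fold and Adamts1 1.83-fold. Adamts15 fell 15.8-fold by its counts, Adamts12 1.90-fold and Adamts2 1.68-fold, and Adamts5 did not pass the test. All 8 were tested. Adamts15 passed the filter on low counts only through naive CM and regular medium, where it is high. Its call as lower was therefore favoured by the filter, and the counts and the median below include it. In all, 7 of 8 members passed a Benjamini-Hochberg adjusted p of 0.05 in the edgeR quasi-likelihood test, against 71.9% of the 16140 genes tested. The 4 members that rose compare with 36.1% of genes called higher, and the 3 that fell with 35.8% called lower. A change of at least 2-fold was called for 4 members (Adamts4, Adamts7, Adamts9 and Adamts15), against 29% of genes, and libraries of both groups did not overlap for 7 members, against 69.5% of genes. The median log2 fold change of the 8 members was 0.41, beside 0.0039 for all genes tested. Most genes changed in this comparison, so a call by itself sets no member apart.

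Scaling matters for the small changes. With TMM scaling 5830 genes were called higher and 5781 lower in IFNγ/LPS CM than in naive CM. With library totals alone the median of all genes moved to -0.38 on the log2 scale and the split was 3279 higher and 9371 lower, while the members split 4 higher and 4 lower. Values below are CPM on the TMM scale, for replicates 1 to 4 of each group in that order.

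**Figure D1:**
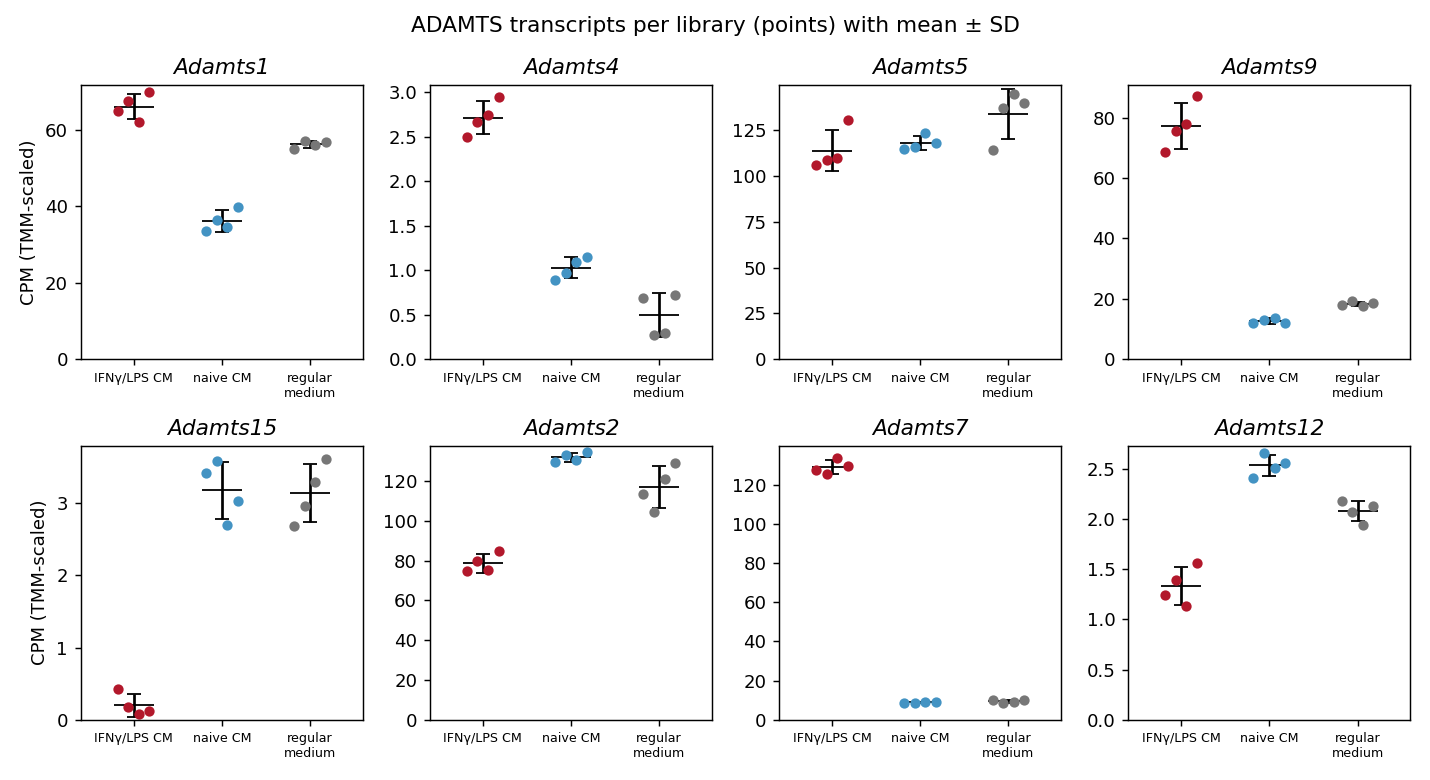
CPM of the 8 ADAMTS genes in each of the 12 libraries, 1 panel per gene with its own linear vertical axis that starts at 0; points are libraries, the horizontal line is the group mean and the error bar its SD (n = 4 per group). Adamts7 and Adamts9 are high in IFNγ/LPS CM, at means of 129.0 and 77.3 CPM, Adamts15 is low there at 0.201 CPM, and the groups of Adamts5 lie close together.

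Adamts7, which encodes a COMP-cutting enzyme, showed the largest rise of the 8 members. It had 127, 126, 134 and 129.5 CPM in IFNγ/LPS CM, against 8.61, 8.66, 8.86 and 9.25 CPM in naive CM and 9.88, 8.53, 9.23 and 10.3 CPM in regular medium. The 4 IFNγ/LPS CM libraries stood far above the other 8, which lay in 1 narrow range. Against naive CM the log2 fold change was 3.87 (SE 0.0572, edgeR adjusted p = 3.55e-21), and against regular medium it was 3.77 (SE 0.0568, edgeR adjusted p = 4.3e-21). Naive CM and regular medium overlapped, and their difference did not pass (log2 fold change -0.10, SE 0.0589, edgeR adjusted p = 0.213), although it passed without regular medium replicate 2 (-0.15, edgeR adjusted p = 0.0388). Tbc1d2b overlaps the end of Adamts7 on the opposite strand and averaged 215.3 ± 3.42 CPM in IFNγ/LPS CM and 210.1 ± 2.28 CPM in naive CM (SD, n = 4 each; edgeR adjusted p = 0.404). The 2 genes closest to Adamts7 in pattern, by the root mean square difference of centred log2 CPM over the 12 libraries, were Syt17 (0.0987) and Rnd1 (0.105).

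Adamts12, the closest relative of Adamts7 in this sequence and in substrate, went the other way. Its levels were low, at 1.24, 1.39, 1.14 and 1.56 CPM in IFNγ/LPS CM, from 41 to 53 counts per library, against 2.41, 2.65, 2.50 and 2.56 CPM in naive CM and 2.18, 2.07, 1.94 and 2.13 CPM in regular medium. No library of IFNγ/LPS CM reached the lowest library of the other groups. The log2 fold change was -0.93 against naive CM (SE 0.137, edgeR adjusted p = 5.51e-06) and -0.65 against regular medium (SE 0.138, edgeR adjusted p = 0.000343). All 4 naive CM libraries lay above all 4 of regular medium, but that difference did not pass (log2 fold change 0.28, SE 0.128, edgeR adjusted p = 0.0995) except with limma-voom (0.28, adjusted p = 0.0475). Adamts7 and Adamts12 thus stood 2.17 apart in pattern on the same root mean square scale, where the pairs of members ranged between 0.118 and 3.66. Comp, their shared substrate, had 9 counts over the 4 libraries in IFNγ/LPS CM, 26 in naive CM and 16 in regular medium and was too low to be tested.

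Adamts9, a widely expressed versicanase, had the next largest rise. It had 68.5, 75.6, 78.0 and 87.0 CPM in IFNγ/LPS CM, against 11.9, 12.9, 13.6 and 11.9 CPM in naive CM and 17.9, 19.1, 17.5 and 18.4 CPM in regular medium. The 3 groups did not overlap, and naive CM was the lowest. The log2 fold change was 2.62 for IFNγ/LPS CM against naive CM (SE 0.0691, edgeR adjusted p = 2.74e-17) and 2.08 against regular medium (SE 0.0670, edgeR adjusted p = 6.58e-16). Naive CM lay below regular medium, with a log2 fold change of -0.54 (SE 0.0690, edgeR adjusted p = 5.98e-06). The antisense gene 9530026P05Rik, which overlaps the start of Adamts9 at chr6:92940329-92943492, moved with it. It averaged 13.7 ± 0.825 CPM in IFNγ/LPS CM, 1.49 ± 0.220 CPM in naive CM and 2.99 ± 0.307 CPM in regular medium (SD, n = 4 each), with a log2 fold change of 3.20 for IFNγ/LPS CM against naive CM (edgeR adjusted p = 6.17e-15). The libraries were made with a stranded kit, but whether the counting used the strand is not given in the sources used here, so how reads divide between these partners is uncertain. Ndrg1 (0.127) and Tut4 (0.134) were closest to Adamts9 in pattern.

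Promoter sequence could be read for 4 members, Adamts1, Adamts2, Adamts9 and Adamts12, in RefSeq on GRCm38.p6. The 250 bases before the RefSeq start are shown for Adamts9, which rose, and for Adamts2 and Adamts12, the pair of members most alike in pattern. They are written 5′ to 3′ on the gene's strand, and capitals mark each GC box, GGGCGG or its reverse complement CCGCCC.
Adamts9: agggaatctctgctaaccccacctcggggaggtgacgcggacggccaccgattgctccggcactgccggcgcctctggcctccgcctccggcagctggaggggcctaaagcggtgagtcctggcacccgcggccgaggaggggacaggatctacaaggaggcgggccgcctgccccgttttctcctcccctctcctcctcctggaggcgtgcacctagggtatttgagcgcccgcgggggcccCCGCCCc
Adamts2: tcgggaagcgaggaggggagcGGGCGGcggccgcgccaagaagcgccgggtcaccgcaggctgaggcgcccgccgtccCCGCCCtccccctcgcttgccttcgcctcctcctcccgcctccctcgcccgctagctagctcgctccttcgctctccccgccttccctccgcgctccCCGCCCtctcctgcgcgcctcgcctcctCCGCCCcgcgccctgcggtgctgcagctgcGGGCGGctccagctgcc
Adamts12: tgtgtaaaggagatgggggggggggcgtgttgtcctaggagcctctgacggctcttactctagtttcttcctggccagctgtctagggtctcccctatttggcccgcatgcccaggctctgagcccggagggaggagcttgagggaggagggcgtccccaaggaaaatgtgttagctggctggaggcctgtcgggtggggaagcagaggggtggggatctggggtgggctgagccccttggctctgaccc
These are chr6:92943535-92943784 on the minus strand, chr11:50601835-50602084 on the plus strand and chr15:11064523-11064772 on the plus strand. The Adamts2 promoter held 5 GC boxes, that of Adamts9 held 1, close to the start, and that of Adamts12 held none. Adamts1, whose promoter is not printed, held 3, and 32.7% of all 32851 mouse promoters of this length held at least 1. On both strands, none of the 4 promoters held the gamma-activated site TTCNNNGAA (7.0% of all promoters), the interferon-stimulated response element core (GAAA, any 2 bases, GAAA; 3.0%), the AP-1 site TGACTCA (4.5%), the NF-κB site (GGG, any 2 bases, TTTCC; 1.4%), the cyclic AMP response element TGACGTCA (1.5%) or the C/EBP site TTGCNNAA (9.6%). These are matches of letters in a short window and say nothing of binding.

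Adamts4, known from cartilage as aggrecanase 1, was low and highest in IFNγ/LPS CM. It had 2.50, 2.66, 2.74 and 2.95 CPM in IFNγ/LPS CM, from 92 to 100 counts per library, against 0.894, 0.971, 1.09 and 1.15 CPM in naive CM and 0.687, 0.266, 0.297 and 0.723 CPM in regular medium. The groups did not overlap in any of the 3 comparisons. The log2 fold change was 1.40 for IFNγ/LPS CM against naive CM (SE 0.230, edgeR adjusted p = 2.05e-05) and 2.44 against regular medium (SE 0.248, edgeR adjusted p = 4.09e-08). It was the only member with a call of at least 2-fold for naive CM against regular medium (log2 fold change 1.03, SE 0.258, edgeR adjusted p = 0.00419), where the ratio of summed counts was 2.06 with an exact 95% interval of 1.61 to 2.63 for counting error only. The log2 fold change stayed called but was under 1, short of 2-fold, without regular medium replicate 2 (0.78), without regular medium replicate 3 (0.90) and without naive CM replicate 4 (0.97). The regular medium libraries held 9 to 40 counts each. The genes closest to Adamts4 in pattern were 2610528A11Rik (0.291) and Nsg1 (0.358), farther off than for the abundant members.

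Adamts1, a versican- and aggrecan-cutting enzyme, was lower in naive CM than in either other group. It had 65.0, 67.4, 62.1 and 69.9 CPM in IFNγ/LPS CM, against 33.5, 36.5, 34.5 and 39.8 CPM in naive CM and 55.1, 57.0, 56.0 and 56.7 CPM in regular medium. No groups overlapped. The log2 fold change was 0.87 for IFNγ/LPS CM against naive CM (SE 0.0531, edgeR adjusted p = 1.69e-11) and -0.64 for naive CM against regular medium (SE 0.0528, edgeR adjusted p = 2.74e-08). Against regular medium IFNγ/LPS CM was higher by a log2 fold change of 0.23 (SE 0.0523, edgeR adjusted p = 0.00055) with TMM scaling, but lower, at a log2 fold change of -0.15 (edgeR adjusted p = 0.0185), when scaled by library totals. Arap2 (0.0699) and Plcxd2 (0.0849) were closest to Adamts1 in pattern.

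Adamts5, known from cartilage as aggrecanase 2 and the chromosomal neighbour of Adamts1, was among the most abundant members and changed least between IFNγ/LPS CM and naive CM. It had 106, 109, 109.9 and 131 CPM in IFNγ/LPS CM, against 115.0, 116, 124 and 118 CPM in naive CM and 114, 137, 145 and 140.2 CPM in regular medium. The groups overlapped in every comparison. IFNγ/LPS CM did not differ from naive CM by the test (log2 fold change -0.05, SE 0.0750, edgeR adjusted p = 0.556) with TMM scaling, while library totals gave -0.44 (edgeR adjusted p = 6.13e-05). It was called lower in IFNγ/LPS CM than in regular medium (log2 fold change -0.23, SE 0.0749, edgeR adjusted p = 0.0118). For naive CM against regular medium the log2 fold change was -0.18 (SE 0.0745, edgeR adjusted p = 0.0734). It passed without regular medium replicate 1 (-0.25, edgeR adjusted p = 0.00251), without IFNγ/LPS CM replicate 4 (-0.18, edgeR adjusted p = 0.0208), with a block for the replicate number (-0.18, edgeR adjusted p = 0.0222) and in DESeq2 (-0.18, adjusted p = 0.0461). Tnrc6b (0.0485) and Wdfy3 (0.0589) were closest to Adamts5 in pattern.

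Adamts15, a further versicanase and in sequence the nearest member to Adamts4, was nearly lost in IFNγ/LPS CM. It had 0.430, 0.174, 0.0832 and 0.118 CPM in IFNγ/LPS CM, from 16, 6, 3 and 4 counts, against 3.41, 3.58, 2.70 and 3.03 CPM in naive CM and 2.68, 2.97, 3.29 and 3.61 CPM in regular medium. The highest IFNγ/LPS CM library, replicate 1, was still far below every other library, and naive CM and regular medium overlapped. Adamts15 passed the filter on low counts only through naive CM and regular medium, so its calls as lower below were favoured by the filter. Counts summed to 29 in IFNγ/LPS CM, 648 in naive CM and 632 in regular medium. By these counts and the library sizes IFNγ/LPS CM was 15.8-fold lower than naive CM (exact 95% interval 10.9 to 23.8, counting error only; edgeR adjusted p = 3.1e-10) and 15.1-fold lower than regular medium (10.4 to 22.7; edgeR adjusted p = 3.68e-10). Naive CM and regular medium did not differ by the test (log2 fold change 0.03, SE 0.196, edgeR adjusted p = 0.932), while the sign of that value turned when naive CM replicate 2 (-0.03) or regular medium replicate 1 (-0.04) was left out. Dnajb13 (0.345) and Tg (0.346) were closest to Adamts15 in pattern.

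Adamts2, the procollagen N-propeptidase, fell in IFNγ/LPS CM. It had 74.8, 80.0, 75.2 and 84.8 CPM in IFNγ/LPS CM, against 129.6, 133, 130 and 135 CPM in naive CM and 114, 105, 121 and 129 CPM in regular medium. All libraries of IFNγ/LPS CM lay below all others, and every naive CM library lay above every regular medium library, at the edge by a small margin. The log2 fold change was -0.75 for IFNγ/LPS CM against naive CM (SE 0.0558, edgeR adjusted p = 4.2e-10) and -0.57 against regular medium (SE 0.0558, edgeR adjusted p = 2.24e-08). For naive CM against regular medium it was 0.17 (SE 0.0549, edgeR adjusted p = 0.0194), a call that was lost without naive CM replicate 4 (0.16, edgeR adjusted p = 0.0549) and without regular medium replicate 2 (0.12, edgeR adjusted p = 0.07). Paqr7 (0.0552) and Pcnt (0.0586) were closest to Adamts2 among all genes, and among the members Adamts12 was closest, at 0.118. Orc6 (0.0838) and Dnajc9 (0.0874) were closest to Adamts12.

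**Figure D2:**
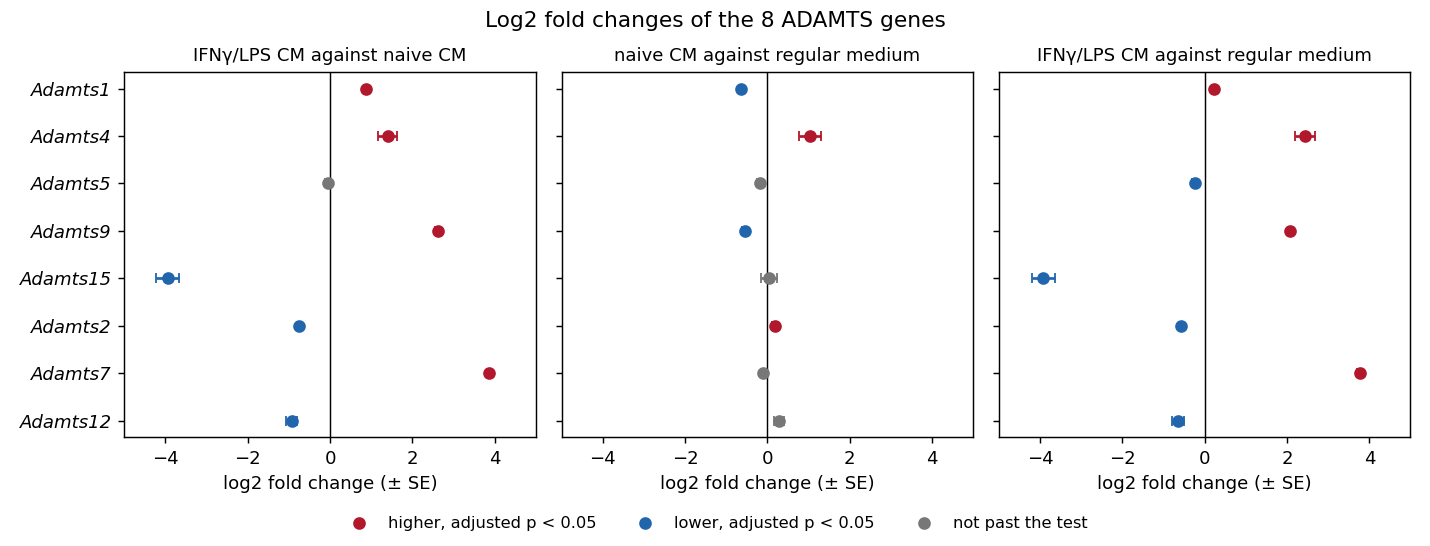
Log2 fold change of each ADAMTS gene in the 3 comparisons, with bars of 1 SE from the edgeR fit over 12 libraries; red points were called higher and blue points lower at an adjusted p of 0.05, and grey points did not pass. For IFNγ/LPS CM against naive CM the members run between -3.95 for Adamts15 and 3.87 for Adamts7, and naive CM against regular medium stays between -0.64 and 1.03.

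The second question was what medium of naive macrophages changed relative to regular medium. Adamts4 (2.05-fold) and Adamts2 (1.13-fold) were higher in naive CM, and Adamts1 (1.56-fold) and Adamts9 (1.46-fold) were lower. These 4 of 8 members compare with 34.7% of the genes tested that were called, the 2 higher with 18.3% and the 2 lower with 16.4%. A change of at least 2-fold was called for 1 member, against 3.82% of genes, and libraries did not overlap for 5 members, against 32.7% of genes. The median log2 fold change of the members was -0.04, beside -0.017 for all genes. Since starvation, serum and M-CSF of regular medium are not given, the part of each in these differences cannot be told apart.

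In the third comparison, of IFNγ/LPS CM against regular medium, all 8 members passed the edgeR test, against 71.8% of genes. The counts here again include Adamts15, which passed the filter on low counts only where it is high. Of these, 4 were higher (Adamts7, Adamts4, Adamts9 and Adamts1, against 35.4% of genes) and 4 lower (Adamts15, Adamts12, Adamts2 and Adamts5, against 36.4% of genes). With library totals Adamts1 was lower, so that the split was 3 higher and 5 lower, while the genes split 3279 higher and 9597 lower in place of 5712 and 5882, around a median that had moved to -0.41. A change of at least 2-fold was called for 4 members, against 28.1% of genes, and libraries did not overlap for 7 members, all but Adamts5, against 65.2% of genes. This comparison shares its libraries with the first and the second, so the values of the 3 are not independent.

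Levels of different members can be set side by side only per length, as CPM per kilobase of exon, a level. In IFNγ/LPS CM the order was Adamts7 (20.5), Adamts1 (12.5), Adamts5 (10.6), Adamts2 (8.43), Adamts9 (5.14), Adamts4 (0.564), Adamts12 (0.122) and Adamts15 (0.0194). Among these, only Adamts1 and Adamts5 were neighbours whose libraries overlapped. In naive CM the order was Adamts2 (14.1), Adamts5 (10.9), Adamts1 (6.81), Adamts7 (1.41), Adamts9 (0.837), Adamts15 (0.307), Adamts12 (0.232) and Adamts4 (0.214), and the last pair overlapped. In regular medium it was Adamts2 (12.5), Adamts5 (12.4), Adamts1 (10.6), Adamts7 (1.51), Adamts9 (1.21), Adamts15 (0.303), Adamts12 (0.190) and Adamts4 (0.102), and the first 3 overlapped one with the next. Adamts7 was therefore first in IFNγ/LPS CM and below 3 other members in both other media, and Adamts2 was below 3 other members in IFNγ/LPS CM and first in both other media. With the length of the longest coding transcript in place of all exons, Adamts7 was still first in IFNγ/LPS CM, but Adamts9 (2.28) stood above Adamts7 (1.76) in regular medium. On that length Adamts2 (10.8) stood above Adamts5 (10.6) in IFNγ/LPS CM, below 2 other members, and their libraries overlapped.

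Summed per kilobase, the 8 members reached 57.8 ± 2.58 in IFNγ/LPS CM, 34.9 ± 0.886 in naive CM and 38.9 ± 2.08 in regular medium (SD over libraries in CPM per kilobase, n = 4 each), and the IFNγ/LPS CM libraries lay above the others. The make-up of this sum also differed between the media. Adamts7 held 35.6 ± 1.66% of it in IFNγ/LPS CM, but 4.04 ± 0.0651% of it in naive CM and 3.89 ± 0.329% in regular medium. Adamts2 held 14.6 ± 0.401% in IFNγ/LPS CM, whereas its share was 40.5 ± 0.559% in naive CM and 32.2 ± 1.83% in regular medium. Adamts5 held 18.2% in IFNγ/LPS CM, 31.4% in naive CM and 31.9% in regular medium, although its CPM did not pass the test between the first pair of these media. Adamts9 held 8.87%, 2.40% and 3.13% in the same order of media, and Adamts1 21.6%, 19.5% and 27.3%. With the longest coding transcript the share of Adamts9 was 13.9% in IFNγ/LPS CM, 3.85% in naive CM and 5.07% in regular medium. Adamts4, Adamts12 and Adamts15 each stayed under 1% in every group mean by exon length, but Adamts15 reached 1.32% in naive CM and 1.17% in regular medium by the longest coding transcript.

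**Figure D3:**
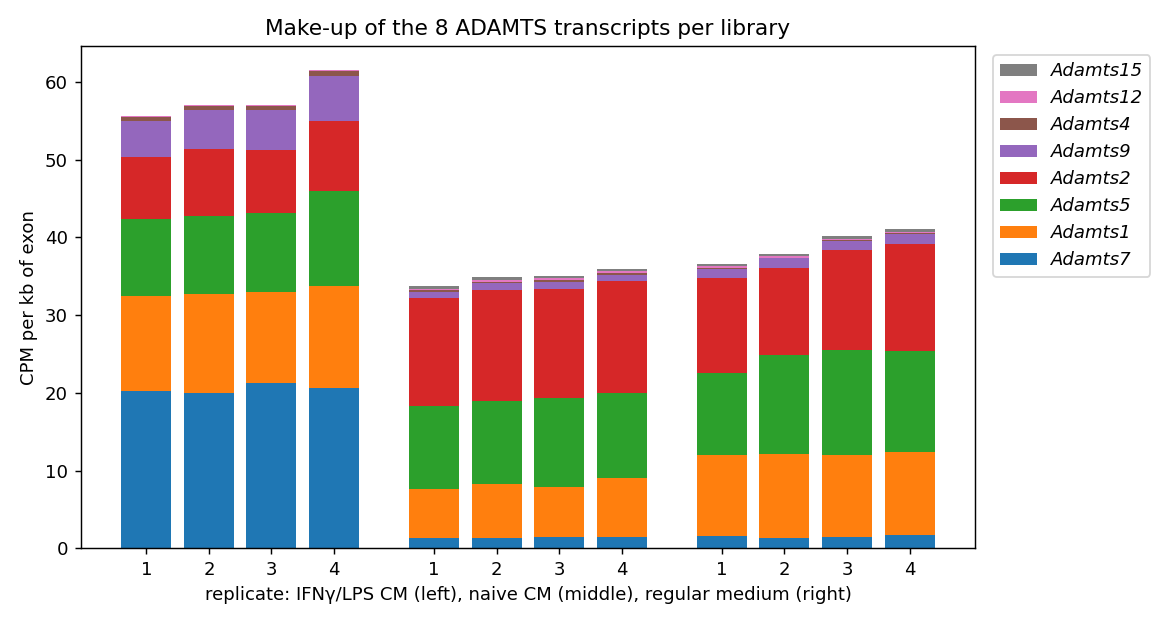
CPM per kilobase of exon of the 8 ADAMTS genes, stacked into 1 bar per library, with the 4 replicates of IFNγ/LPS CM on the left, naive CM in the middle and regular medium on the right. The bars reach 55.6 to 61.6 in IFNγ/LPS CM, and the lowest layer, Adamts7, makes up a mean of 35.6% there, beside 4.04% in naive CM and 3.89% in regular medium.

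The other 11 Adamts genes were read from a fixed list, and 4 of them were high enough to be tested. Of these, Adamts3 passed the filter on low counts only through IFNγ/LPS CM, where it is high, so its call was fixed by the filter and no count or median over the 4 is given. Adamts6, a relative of Adamts10, had 19.3, 17.5, 20.5 and 21.4 CPM in IFNγ/LPS CM, against 1.23, 1.68, 1.54 and 1.75 CPM in naive CM and 1.65, 1.67, 1.94 and 1.90 CPM in regular medium. It rose 12.6-fold over naive CM (edgeR adjusted p = 3.71e-16), with the IFNγ/LPS CM libraries far above the rest. Adamts10, linked to fibrillin microfibrils, had 34.2, 32.6, 32.3 and 33.0 CPM in IFNγ/LPS CM, against 150.3, 138, 151 and 149 CPM in naive CM and 166, 153, 173 and 167 CPM in regular medium, and fell 4.45-fold relative to naive CM (edgeR adjusted p = 1.06e-18). Adamts3 and Adamts14 encode procollagen N-propeptidases like Adamts2. Adamts3 had 98 to 149 counts per library in IFNγ/LPS CM, 488 in all, and 3 counts in all in naive CM and 3 in regular medium, a ratio to naive CM of 230 with an exact 95% interval of 78.1 to 1117 for counting error only. Adamts14 averaged 2.50 ± 0.498 CPM in IFNγ/LPS CM and 1.07 ± 0.219 CPM in naive CM (SD, n = 4 each; 2.33-fold, edgeR adjusted p = 1.04e-05). Adamts14 was thus called higher where Adamts2 was called lower. Between naive CM and regular medium, Adamts10 was called lower and Adamts3, Adamts6 and Adamts14 did not pass, although Adamts14 was called lower with a block for the replicate number (-0.51, edgeR adjusted p = 0.0416).

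Of 6 genes for ADAMTS-like proteins, papilin included, which lack the protease domain, 5 were tested. In IFNγ/LPS CM against naive CM 1 was higher, 3 were lower and papilin did not pass, around a median log2 fold change of -0.73, so that 4 of 5 were called beside 71.9% of all genes. With library totals all 5 were called lower, papilin included (-0.94, edgeR adjusted p = 0.0145), beside 9371 of all 16140 genes tested. Adamtsl3 averaged 128 ± 2.93 CPM in IFNγ/LPS CM and 472 ± 13.8 CPM in naive CM (SD, n = 4 each; 3.69-fold lower, edgeR adjusted p = 2.99e-18). Adamtsl1 averaged 0.367 ± 0.119 CPM in IFNγ/LPS CM and 4.16 ± 0.255 CPM in naive CM (SD, n = 4 each; 11.3-fold lower by its counts, edgeR adjusted p = 8.89e-13). It passed the filter on low counts through naive CM and regular medium, where it is high. Its call as lower was therefore favoured by the filter, and the counts and the median of this list include it. Adamtsl4 was higher by a log2 fold change of 0.21 (edgeR adjusted p = 0.0192) with TMM scaling and lower, at -0.17 (edgeR adjusted p = 0.0434), with library totals.

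For the substrates the counts of calls were small and stand beside 71.9% of all genes called, 36.1% higher and 35.8% lower. Of 8 proteoglycans and their partners 3 were tested, of which 2 were higher and 1 lower in IFNγ/LPS CM than in naive CM (median log2 fold change 1.55). Vcan, which encodes versican, had 168, 164, 172 and 169 CPM in IFNγ/LPS CM, against 12.1, 15.2, 14.7 and 15.8 CPM in naive CM and 10.5, 12.8, 16.5 and 16.6 CPM in regular medium, and rose 11.6-fold over naive CM (edgeR adjusted p = 5.17e-10). The decorin gene Dcn was 2.93-fold higher (edgeR adjusted p = 1.27e-15) and the biglycan gene Bgn 1.23-fold lower (edgeR adjusted p = 4.26e-05). Acan, the aggrecan gene, had 1 count in all in IFNγ/LPS CM, 14 in naive CM and 9 in regular medium and was not tested. The substrate gene Vcan and the versicanase genes Adamts9, Adamts4 and Adamts1 were therefore called higher. Adamts15 was called lower, a call favoured by the filter on low counts, and Adamts5 did not pass.

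Of 6 fibrillar procollagen genes cut by the N-propeptidases 5 were tested, of which none was higher and 3 were lower in IFNγ/LPS CM than in naive CM (median log2 fold change -0.84). These 3 of 5 calls, and those of the other substrates below, stand beside 71.9% of all genes called, 36.1% higher and 35.8% lower. Col3a1 had 16.0, 17.6, 13.3 and 13.7 CPM in IFNγ/LPS CM, against 329.9, 349, 300.1 and 337 CPM in naive CM and 202, 183, 194 and 178 CPM in regular medium, and was 21.7-fold lower than in naive CM (edgeR adjusted p = 1.96e-16). Col5a2 was 2.05-fold lower and Col1a2 1.79-fold lower. Col1a1 averaged 511 CPM in IFNγ/LPS CM and 455 CPM in naive CM and did not pass (log2 fold change 0.17, SE 0.211, edgeR adjusted p = 0.505). In naive CM against regular medium Col3a1 and Col1a2 were higher, as was Adamts2. Of 10 other substrates and fibrillin partners 7 were tested, of which 2 were higher and 4 lower in IFNγ/LPS CM than in naive CM (median log2 fold change -0.46). Thbs1, which encodes thrombospondin 1, was 3.35-fold lower (edgeR adjusted p = 3.24e-16), the nidogen gene Nid1 was 1.94-fold higher (edgeR adjusted p = 7.22e-14), and Fbn1, the fibrillin 1 gene, did not pass (log2 fold change 0.04, SE 0.0517, edgeR adjusted p = 0.48) with TMM scaling. With library totals the procollagens were 0 higher and 4 lower, the other substrates 1 higher and 5 lower, with Fbn1 among the lower (-0.34, edgeR adjusted p = 4.8e-06), and the proteoglycans again 2 higher and 1 lower. Of all 16140 genes tested, 3279 were higher and 9371 lower under that scaling.

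Inhibitors and regulators were read from fixed lists as well. Timp3 had 2086, 2286, 2168 and 2331 CPM in IFNγ/LPS CM, against 2408, 2369, 2308 and 2299.8 CPM in naive CM and 2579.9, 2738, 2714 and 2537 CPM in regular medium. It did not pass for IFNγ/LPS CM against naive CM (log2 fold change -0.08, SE 0.0437, edgeR adjusted p = 0.103) with TMM scaling, and was called lower, at -0.47 (edgeR adjusted p = 8.85e-09), with library totals. Of the 7 inhibitors listed 4 were tested, of which 1 was higher and 2 were lower in IFNγ/LPS CM than in naive CM. These calls stand beside 71.9% of all genes called, 36.1% higher and 35.8% lower. Timp1 was higher, at 1597 ± 71.4 CPM in IFNγ/LPS CM and 66.8 ± 4.16 CPM in naive CM (SD, n = 4 each; edgeR adjusted p = 4.24e-20). Timp2 was lower, at 993 ± 26.2 CPM in IFNγ/LPS CM and 2492 ± 46.1 CPM in naive CM (SD, n = 4 each; edgeR adjusted p = 4.99e-16), as was Reck, which encodes a membrane-anchored inhibitor, at 41.5 ± 1.42 CPM and 126 ± 5.28 CPM in the same order (edgeR adjusted p = 7.73e-17). The list median was -0.70. With library totals 1 inhibitor was higher and 3 were lower, beside 3279 higher and 9371 lower of all 16140 genes tested.

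Among 10 genes for activation, clearance and sugar transfer, all tested, 5 were higher and 3 lower, with 2 not past the test, in IFNγ/LPS CM against naive CM (median log2 fold change 0.14). These 8 of 10 calls are near the 71.9% over all genes. With library totals 3 were higher and 5 lower, beside 3279 higher and 9371 lower of all 16140 genes tested. Furin, the main convertase of these precursors, had 101.5, 97.6, 111 and 118 CPM in IFNγ/LPS CM, against 23.2, 27.1, 27.8 and 27.0 CPM in naive CM and 24.2, 23.7, 29.1 and 35.2 CPM in regular medium, and rose 4.07-fold over naive CM (edgeR adjusted p = 2.61e-08). Sdc4, which encodes the matrix-binding syndecan 4, averaged 1994 ± 94.3 CPM in IFNγ/LPS CM, 214.6 ± 3.02 CPM in naive CM and 227 ± 7.01 CPM in regular medium (SD, n = 4 each; 9.29-fold over naive CM, edgeR adjusted p = 1.16e-21). Lrp1, the receptor that clears Adamts4 and Adamts5 protein, averaged 988 ± 111 CPM in IFNγ/LPS CM, 572 ± 64.0 CPM in naive CM and 574 ± 86.2 CPM in regular medium (SD, n = 4 each; 1.73-fold over naive CM, edgeR adjusted p = 0.000159). Lrp2 was 4.36-fold lower (edgeR adjusted p = 2.21e-10) and Pcsk6, another convertase, 2.12-fold lower (edgeR adjusted p = 4.8e-08).

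**Figure D4:**
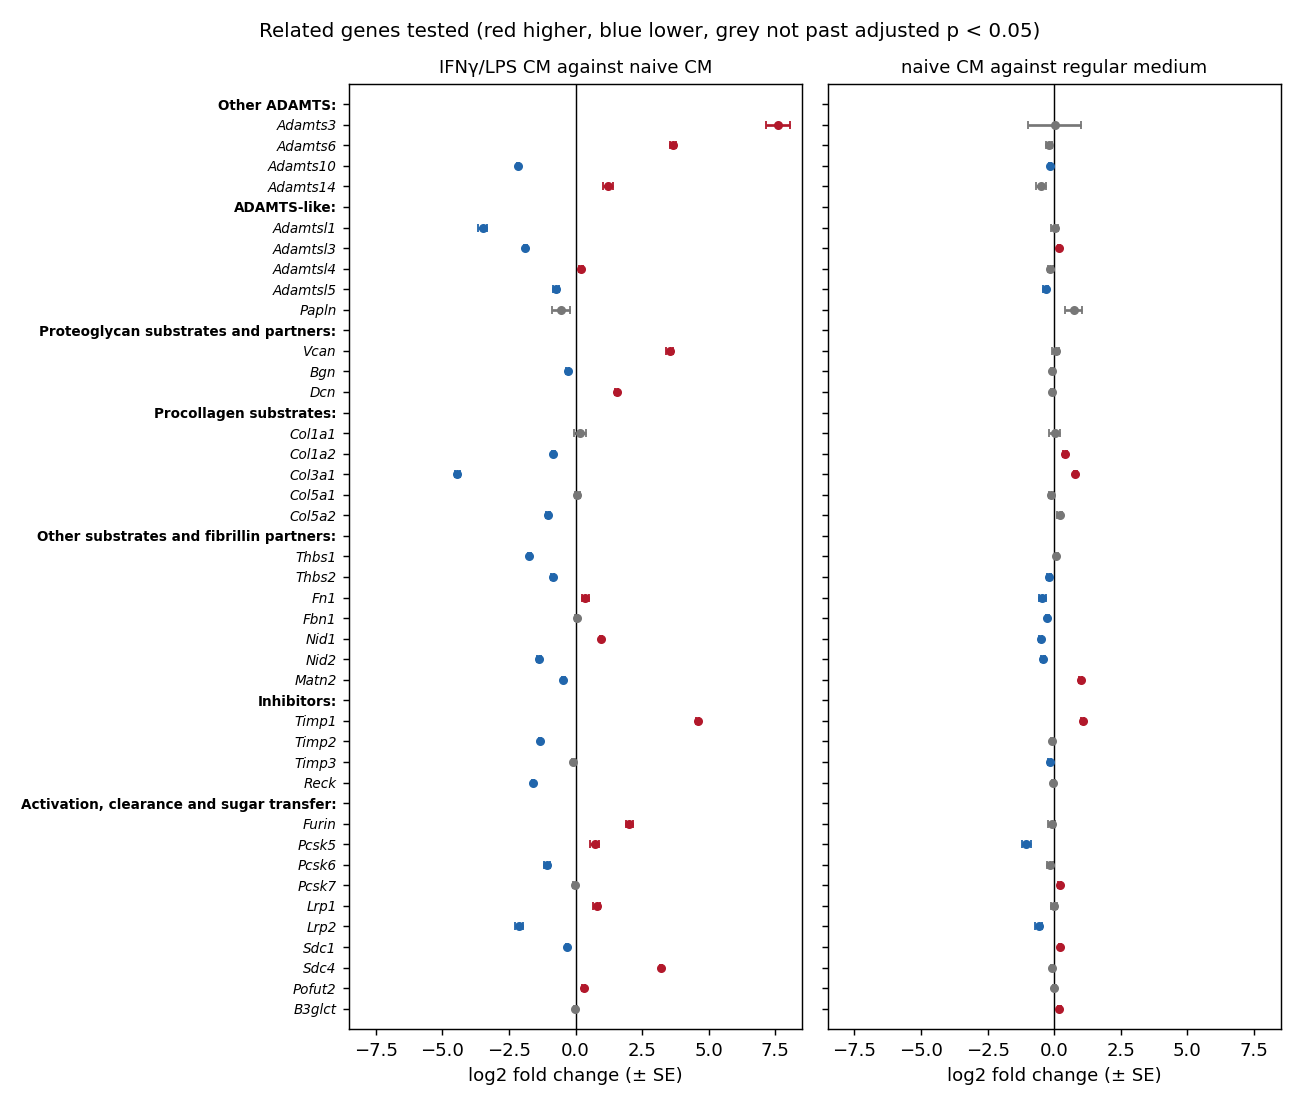
Log2 fold change of the related genes tested, grouped by list, in IFNγ/LPS CM against naive CM (left) and naive CM against regular medium (right), with bars of 1 SE from the edgeR fit over 12 libraries; red points were called higher and blue points lower at an adjusted p of 0.05, and grey points did not pass. On the left Adamts3, which rests on 3 counts in naive CM, Timp1 (4.58) and Vcan (3.53) lie far to the right and Col3a1 (-4.44) far to the left, while Timp3 (-0.08) and Fbn1 (0.04) lie near 0.

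Taken library by library, IFNγ/LPS CM replicate 4 was the highest of its group for 6 of the 8 members, and naive CM replicate 1 the lowest of its group for 7 of 8. The same ranks were not taken over all genes, so they do not set the members apart. The comparison of IFNγ/LPS CM with naive CM called 7 members with any 1 of the 12 libraries left out. By the chi-square per degree of freedom of the gene counts, regular medium replicate 4 stood farthest from its group, at 20.1 to 51.5. Other pairs of libraries within a group stood at 4.48 to 18.7. Without that library 4 members were called for naive CM and 8 for IFNγ/LPS CM against regular medium, as with all libraries.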

How the data were processed

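RNA of 12 libraries was prepared with a stranded kit for polyadenylated RNA, per the labels' protocols. Salmon 1.10.1 and the mm10 build are named, per the submitters' processing notes; for its settings, the annotation release and the way transcripts were summed, nothing is given in the sources used here. The authors deposited expected counts per gene as whole numbers, which were used as they stand. Of 55822 identifiers 51344 (92.0%) matched a symbol in GENCODE M21 (GRCm38), 35 of them with the same version. The rest took up 3.53 to 5.86% of each library's counts.

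Genes were kept by filterByExpr of edgeR 4.0.16 in R 4.3.3, which left 16140, all 8 members among them. Counts were scaled by TMM and tested, two-sided, with the robust edgeR quasi-likelihood F-test in 1 model of the 12 libraries (9 residual degrees of freedom), with Benjamini-Hochberg adjustment over all genes and a threshold of 0.05. The SE given is approximate: the log2 fold change divided by the square root of F. Where the text gives a count ratio, it is the ratio of summed counts over summed scaled library sizes with an exact interval. All members are named. From each related list up to 3 called genes per direction with the largest change and at least 1 CPM in the higher group are named, plus 10 genes whatever their result, and the 2 genes closest in pattern to each member. Members, lists and tests were chosen with earlier results of these data known. Alternatives were DESeq2 1.42.0 size factors, library totals, other filters, DESeq2, limma-voom (limma 3.58.1), the 2 groups alone, the replicate number as a block and each library left out. The test was tried on simulated counts. Libraries of the same number were not treated as paired, since the labels name no shared animal or day and their deviations correlated at -0.0637 to 0.0679.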

Additional observations from a re-analysis of the deposited data

Results flagged for a closer look

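Adamts5 in IFNγ/LPS CM was singled out because 1 library stood away from the rest of its group. Replicate 4 had 131 CPM, against 106, 109 and 109.9 CPM in replicates 1 to 3, a gap of 0.855 of the group's range, which is above the critical value of Dixon's test for 4 samples. It was 1 of 24 groups of members and media examined, and chance marks about 1 group in 20. Without this library the log2 fold change of Adamts5 for IFNγ/LPS CM against naive CM was -0.12 (edgeR adjusted p = 0.0914), and it did not pass either way.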

How the results depend on the processing

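Each comparison was repeated under 20 alternatives. The count of genes called ranged between 10321 and 12650 for IFNγ/LPS CM against naive CM, between 4683 and 5841 for naive CM against regular medium, and between 10293 and 12876 for IFNγ/LPS CM against regular medium, and members called between 7 and 8, 3 and 5, and 8 and 8. Of the repeated member tests 468 kept direction and side of the threshold and 12 did not. Those 12 are given beside the members above; they include the signs that turned, of Adamts1 for IFNγ/LPS CM against regular medium with library totals (-0.15) and of Adamts15 for naive CM against regular medium without naive CM replicate 2 (-0.034) or regular medium replicate 1 (-0.042), where values with 1 library left out ran between -0.042 and 0.11 and it passed in no alternative. The cause was not tested. With the replicate number as a block 11653, 5780 and 11610 genes and 7, 5 and 8 members were called in the 3 comparisons; the added member was Adamts5 for naive CM against regular medium (-0.18, edgeR adjusted p = 0.0222), and no other member call changed. No pair of same-numbered libraries correlated above 0.1, of 12 pairs.

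Depth limits Adamts15 in IFNγ/LPS CM (3 to 16 counts per library) and Adamts4 in regular medium (9 to 40 counts). Of 48 values per length, 24 levels and 24 family shares, 35 moved by more than 1 SD with the longest transcript's length.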
